A study of Homo sapiens with 6 samples.

Results

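Cohesin and condensin are ring-shaped protein complexes built on pairs of SMC (structural maintenance of chromosomes) ATPases. The 10 genes described here encode subunits of these complexes, and they were taken by symbol from the 35474 genes in the deposited tables, where all 10 were found. They comprise the cohesin core pair SMC1A and SMC3, the pair SMC2 and SMC4 shared by both condensins, the condensin I subunits NCAPD2, NCAPG and NCAPH, and the condensin II subunits NCAPD3, NCAPG2 and NCAPH2. The other core subunits of cohesin were not taken as members. The RNA came from A549, an established human lung adenocarcinoma line, and libraries were prepared from poly(A) RNA. Cells of the siBAP18 group received siRNA against BAP18, a chromatin-associated protein encoded by C17orf49, and cells of the siCtrl group received non-specific siRNA. All cultures were harvested 48 h after transfection, with 3 libraries per group that the labels call biological replicates. The study describes several BAP18 siRNAs, and the sources used here do not state which was given to the sequenced cells. The groups compare 1 cell line, with a partial loss of the transcript at 48 h.

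Cohesin holds sister chromatids together from replication until anaphase and extrudes chromatin loops in interphase. Condensin compacts and resolves chromosomes for mitosis, with condensin II present in the nucleus throughout the cycle and condensin I reaching chromosomes once the nuclear envelope has broken down. In each condensin, a kleisin (NCAPH or NCAPH2) closes the SMC ring, and HEAT-repeat proteins (NCAPD2 and NCAPG, or NCAPD3 and NCAPG2) bind the kleisin. Several of these genes are transcribed mainly in cycling cells, and many promoters of that kind carry a cell cycle genes homology region (CHR), a short element read by the MuvB proteins of the DREAM complex.

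The promoters were searched for these elements, because the members changed in the same experiment and differed in how far. RefSeq windows on GRCh38.p14, from 250 bases before to 50 after the transcription start, were matched by symbol for 9 of the 10 genes, all but NCAPH2. The CHR word TTTGAA, on either strand, was in 6 of these 9 windows and in 15.4% of all 27305 promoter windows. The 6 matches are printed with 10 bases on either side where the window allows, in the direction of the gene, and capitals mark the word or its reverse complement.
SMC3 (chr10:110567534-110567559, + strand): gaattctagaTTCAAAagaaatccac
SMC2 (chr9:104094296-104094321, + strand): cgcgccgaaaTTCAAAggaataaata
SMC4 (chr3:160399565-160399590, + strand): cgcactttttTTCAAAttagtggatc
NCAPD2 (chr12:6493947-6493972, + strand): gccgttgagaTTTGAActcggtattt
NCAPG (chr4:17810934-17810959, + strand): gcgggaattaTTTGAAcgttcgagcg
NCAPG2 (chr7:158704755-158704779, − strand): ggcgggtgcgTTTGAAtctggtccg
Counted in bases from the RefSeq transcription start, the match began at −3 in SMC2, at −35 in NCAPG and at −75 in SMC4. That in NCAPG2 began at 35, past this start. In NCAPD2 and SMC3 the word lay farther upstream of it, at −145 and −151. The deposited gene positions start farther upstream for SMC2 (104094260), NCAPG (17810902), SMC4 (160399274) and NCAPD2 (6493356). The matches in these genes and in NCAPG2 thus fall within the deposited spans, while that in SMC3 lies before the deposited start (110567691). The second CHR word TTTAAA was in 1 of the 9 windows, that of NCAPH, and in 12.3% of all windows. A CCAAT box, on either strand, was in 2 of the 9 windows (NCAPD2, which held 4 copies, and NCAPH) and in 35.7% of all. The E2F word TTCCCGC was in NCAPG alone among the members, at 2 positions, and in 6.56% of all windows, while TTGGCGC was in none of the 9 and in 3.12% of all. One of these positions in NCAPG, at −45 and in reverse, lies next to the CHR word: tccccctctcGCGGGAAttatttgaac. A match is a description of the letters and was not tested as a binding site.

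The siRNA acted on its target in every library. C17orf49 was at 743, 751 and 705 counts in the siCtrl libraries, numbered 1 to 3 in this order throughout, and at 120, 137 and 108 counts in the siBAP18 libraries. Its exons overlap those of the readthrough gene RNASEK-C17orf49, over 44.3% of their bases, and of the opposite-strand gene MIR497HG, over 55.8%. RNASEK-C17orf49 had a log2 fold change of −0.24 (edgeR adjusted p = 0.0138) and MIR497HG of −2.57 (edgeR adjusted p = 3.92e-13). Because of the overlap, reads of these genes cannot be told apart in the shared stretches. In siCtrl cells the mean level was 21.1 RPKM for RNASEK-C17orf49 and 5.72 RPKM for C17orf49. The log2 fold change is given here with its standard error (SE) and an adjusted p from the quasi-likelihood F test of edgeR. For C17orf49 as listed, without the readthrough gene, it was −2.65 (SE 0.111, edgeR adjusted p = 7.31e-16), and 15.9% of the control level was left. The libraries held from 46035635 to 53657450 counts in siCtrl and from 42094524 to 56548620 in siBAP18. Over 14891 genes, the root mean square log2 difference between 2 libraries was 0.140 to 0.152 within siCtrl, 0.163 to 0.237 within siBAP18 and 0.488 to 0.549 between the groups. The epithelial keratins KRT8 and KRT18 were each at 225203 counts or more in every library. Of the 5 epithelial markers listed, 4 were lower and 0 higher in siBAP18 cells, namely the cadherin CDH1 (log2 fold change −1.32, edgeR adjusted p = 3.81e-14), KRT8 (−0.37), EPCAM (−0.41) and KRT18 (−0.24), and their part in the results for the subunits was not tested. Over all genes tested, 25.1% were lower and 24.5% higher, and 33.2% were lower among those at or above the average level of NCAPG. KRT19 had a log2 fold change of 0.15 (edgeR adjusted p = 0.0894). The endothelial marker KDR had at most 4 counts in any library. Among further cell type markers, CD14, PECAM1, CDH5, COL1A2 and PDGFRA had at most 60 counts in any library and COL1A1 had 349 to 611. PTPRC, CD3E and DCN were not analysed here. Mitochondrial transcripts took 6.87 to 7.43% of the counts in siCtrl and 5.28 to 6.14% in siBAP18 libraries, and their part in the results was not tested.

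Of the 10 subunit genes, 8 were lower and 1 was higher in siBAP18 cells in the quasi-likelihood F test of edgeR, at a Benjamini-Hochberg adjusted p under 0.05 over 20776 genes. All 10 passed the filter on low counts. In the same test, 25.1% of all genes tested were lower and 24.5% were higher. Among the 9066 tested genes at or above the average level of the lowest member, NCAPG, 33.2% were lower and 32.9% higher. The median log2 fold change of the members was −0.81, against 0.001 for all genes tested. In 8 of the 10 genes every siBAP18 library lay below every siCtrl library, in NCAPH2 every siBAP18 library lay above, and in NCAPD2 the groups overlapped, on the scale of TMM-scaled counts. Of all genes tested, 29% were separated downwards in this way and 27.6% upwards. With the additional requirement of an absolute log2 fold change over 1, which is the threshold of the study, SMC2 and SMC4 were called lower, SMC4 no longer with offsets for gene length and GC content (−0.77), and no member was called higher, against 3.74% of all genes lower and 4.72% higher, and 2.60% lower among the 9066 genes at that level. These counts describe the members and are not a test of the list.

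**Figure D1:**
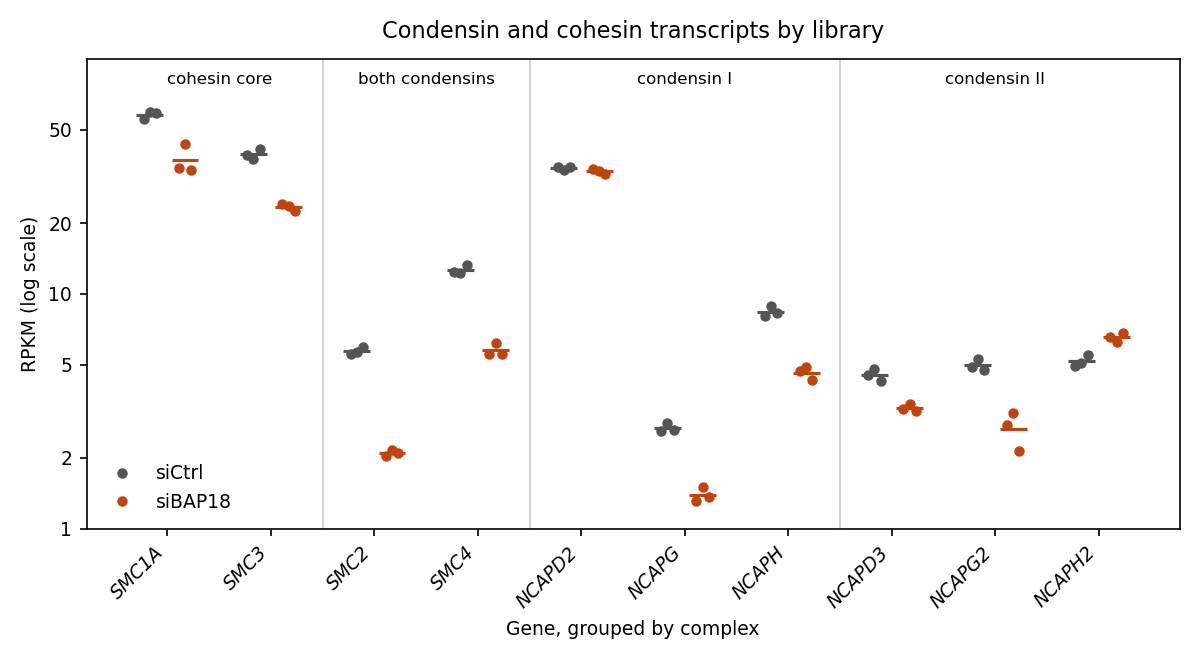
RPKM of each subunit gene (log scale) in the 3 siCtrl libraries (grey) and the 3 siBAP18 libraries (dark orange), with a bar at each group mean and genes grouped by complex. SMC2 shows the widest gap, from about 5.71 to 2.10 RPKM, the points of NCAPD2 overlap between the groups, and the siBAP18 points of NCAPH2 sit above its siCtrl points.

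SMC2 and SMC4, the ATPase pair of both condensins, had the lowest log2 fold changes of the 10 genes. With offsets for gene length and GC content, NCAPH (−0.95) lay below SMC4 (−0.77). Positions are those of the deposited gene table, on the human genome build GRCh38. SMC2 (chr9:104094260-104141417, + strand) was at 5.55, 5.63 and 5.95 RPKM in the siCtrl libraries and at 2.04, 2.16 and 2.09 RPKM in the siBAP18 libraries. RPKM is the count divided by the listed exon length and by the total of the library, which puts genes on a common scale. The listed length covers all listed exons of a gene and not the transcript expressed, so comparisons of level between genes are approximate. The log2 fold change of SMC2 was −1.45 (SE 0.0744, edgeR adjusted p = 4.05e-14), which left 36.6% of the control level, and 1.04% of all genes tested had a lower value. The siBAP18 libraries of SMC2 lay close together, with an SD of 0.0594 RPKM (n = 3) around 2.10. SMC4 (chr3:160399274-160434962, + strand) was at 12.4, 12.2 and 13.2 RPKM in the siCtrl libraries and at 5.55, 6.15 and 5.52 RPKM in the siBAP18 libraries. Its log2 fold change was −1.14 (SE 0.0684, edgeR adjusted p = 6.85e-13), so that 45.3% was left. In bulk RNA, fewer cells that express a gene and less RNA per cell cannot be told apart, and this holds for each value given here.

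The subunits that complete condensin I did not move together. NCAPG, a HEAT-repeat subunit (chr4:17810902-17844862, + strand), had the lowest level of the 10 genes in both groups. It was at 2.61, 2.81 and 2.63 RPKM in the siCtrl libraries and at 1.31, 1.5 and 1.36 RPKM in the siBAP18 libraries. The log2 fold change was −0.95 (SE 0.0921, edgeR adjusted p = 4.33e-09), with no overlap between the groups. NCAPH (chr2:96335787-96373845, + strand), the kleisin of condensin I, fell from 8.06, 8.89 and 8.25 RPKM to 4.67, 4.86 and 4.30 RPKM, a log2 fold change of −0.87 (SE 0.0748, edgeR adjusted p = 5.30e-10). NCAPD2 (chr12:6493356-6531955, + strand), the other HEAT-repeat subunit, was at 34.5, 33.6 and 34.8 RPKM in the siCtrl libraries and at 34.1, 33.5 and 32.5 RPKM in the siBAP18 libraries, and the groups overlapped. Its log2 fold change was −0.04 (SE 0.0642, edgeR adjusted p = 0.595), in the middle of all genes tested, of which 46.5% had a lower value. Its level per length was 34.3 ± 0.612 RPKM (SD, n = 3) in siCtrl cells, far above that of NCAPG at 2.68 ± 0.111 and NCAPH at 8.40 ± 0.434 (SD, n = 3 each).

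The condensin II subunits differed from each other in direction. NCAPG2, a HEAT-repeat subunit (chr7:158631311-158704829, − strand), was at 4.90, 5.26 and 4.76 RPKM in the siCtrl libraries and at 2.77, 3.10 and 2.14 RPKM in the siBAP18 libraries. The siBAP18 libraries were spread more widely in proportion to their mean than for the other condensin genes, with replicate 3 the lowest, yet all lay below the siCtrl libraries. The log2 fold change was −0.90 (SE 0.0874, edgeR adjusted p = 4.25e-09). NCAPD3 (chr11:134150119-134225454, − strand) is the counterpart of NCAPD2. It fell from 4.52, 4.80 and 4.25 RPKM to 3.23, 3.39 and 3.19 RPKM, with a log2 fold change of −0.47 (SE 0.0700, edgeR adjusted p = 3.47e-06). NCAPH2 (chr22:50508216-50523472, + strand), the kleisin of condensin II, rose, from 4.92, 5.07 and 5.51 RPKM in the siCtrl libraries to 6.56, 6.23 and 6.80 RPKM in the siBAP18 libraries. Its log2 fold change was 0.33 (SE 0.0817, edgeR adjusted p = 0.00138), the only member called higher.

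Both cohesin ATPases fell, by smaller log2 fold changes than the condensin ATPases and from higher levels, and the difference between genes was not tested. SMC1A (chrX:53374149-53422728, − strand) was at 55.6, 59.7 and 58.9 RPKM in the siCtrl libraries and at 34.5, 43.5 and 33.7 RPKM in the siBAP18 libraries. siBAP18 replicate 2 was the highest of its group and remained below every siCtrl library. The log2 fold change was −0.65 (SE 0.0753, edgeR adjusted p = 8.73e-08), which left 63.8% of the control level. SMC3 (chr10:110567691-110604636, + strand) fell from 39.1, 37.4 and 41.6 RPKM to 24.2, 23.7 and 22.5 RPKM. Its log2 fold change was −0.75 (SE 0.0672, edgeR adjusted p = 1.03e-09), so that 59.4% was left.

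**Figure D2:**
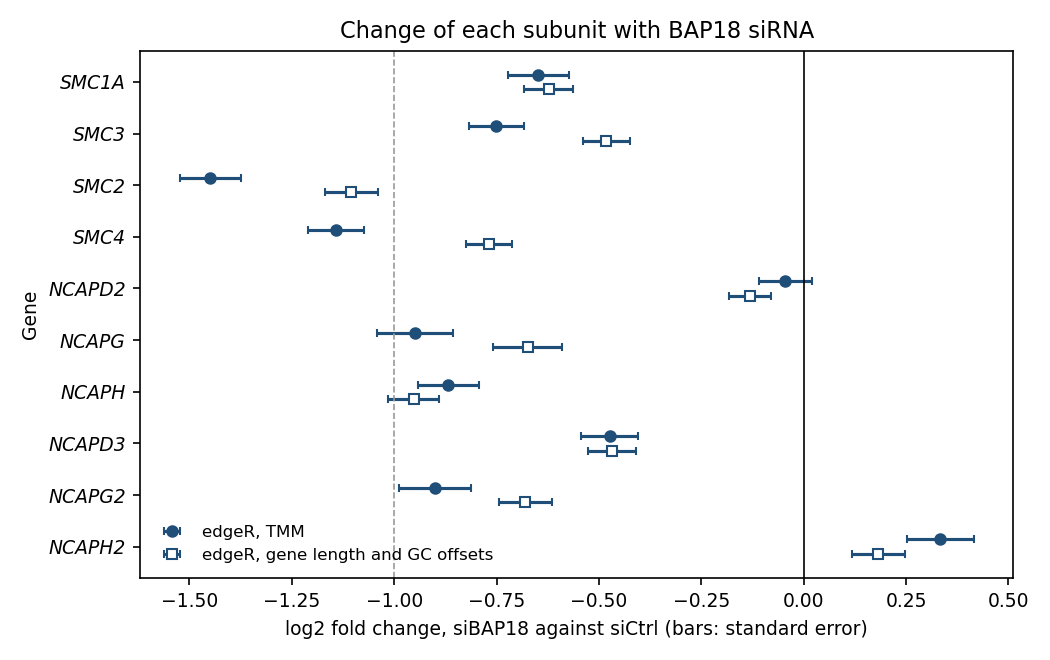
log2 fold change of each subunit gene between siBAP18 and siCtrl cells with its standard error, from the TMM-scaled edgeR fit (filled circles) and from the fit with offsets for gene length and GC content (open squares). The dashed line marks −1. SMC2 lies below −1 in both fits, SMC4 only in the first, and NCAPH2 lies above 0 in both.

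The order of the levels changed with these differences. In siCtrl cells the mean level per length fell in the order SMC1A (58.0 RPKM), SMC3 (39.4), NCAPD2 (34.3), SMC4 (12.6), NCAPH (8.40), SMC2 (5.71), NCAPH2 (5.17), NCAPG2 (4.97), NCAPD3 (4.52) and NCAPG (2.68). Neighbours in this order had separate ranges over 3 libraries, except NCAPH2 and NCAPG2, and NCAPG2 and NCAPD3. In siBAP18 cells the order of the mean RPKM was SMC1A (37.2), NCAPD2 (33.4), SMC3 (23.5), NCAPH2 (6.53), SMC4 (5.74), NCAPH (4.61), NCAPD3 (3.27), NCAPG2 (2.67), SMC2 (2.10) and NCAPG (1.39). There the ranges of SMC1A and NCAPD2 overlapped, and so did those of NCAPG2 and SMC2, while the other neighbours were separate. SMC2 thus stood in place 6 in siCtrl cells and place 9 in siBAP18 cells, and NCAPH2 in places 7 and 4.

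Ratios of RPKM within a library need no scaling between libraries, and 5 pairs were compared, each of which joins the partners of an SMC dimer or the counterparts in condensin I and II. The ratio of the kleisins, NCAPH to NCAPH2, was 1.64, 1.75 and 1.5 across the siCtrl libraries, against 0.712, 0.780 and 0.633 across the siBAP18 libraries. NCAPH thus had the higher RPKM in every siCtrl library and the lower in every siBAP18 library. The mean log2 ratio differed by −1.20 between the groups, with an SD of 0.114 in siCtrl and 0.151 in siBAP18 (n = 3 each). The exact two-sided permutation test gave p = 0.10, the smallest that 3 libraries against 3 allow, and 0.167 when adjusted over the 5 pairs. The ratio of NCAPD2 to NCAPD3 was 7.65, 7.00 and 8.19 in siCtrl and 10.6, 9.89 and 10.2 in siBAP18, without overlap (difference in log2 ratio 0.43). The ratio of SMC2 to SMC4 was 0.446, 0.461 and 0.450 in siCtrl and 0.368, 0.351 and 0.379 in siBAP18, also without overlap (difference in log2 ratio −0.30, and −0.10 with 1 RPKM added to both genes). These 2 pairs reached the same exact permutation p of 0.10 and 0.167 after adjustment. The ratio of SMC1A to SMC3 was 1.42, 1.59 and 1.42 in siCtrl and 1.43, 1.83 and 1.5 in siBAP18, so that the groups overlapped (difference in log2 ratio 0.09, exact permutation p = 0.50). The ratio of NCAPG to NCAPG2 was 0.532, 0.534 and 0.552 in siCtrl and 0.475, 0.484 and 0.638 in siBAP18, which overlapped as well, with siBAP18 replicate 3 apart from the other two (difference in log2 ratio −0.03, exact permutation p = 1.00).

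**Figure D3:**
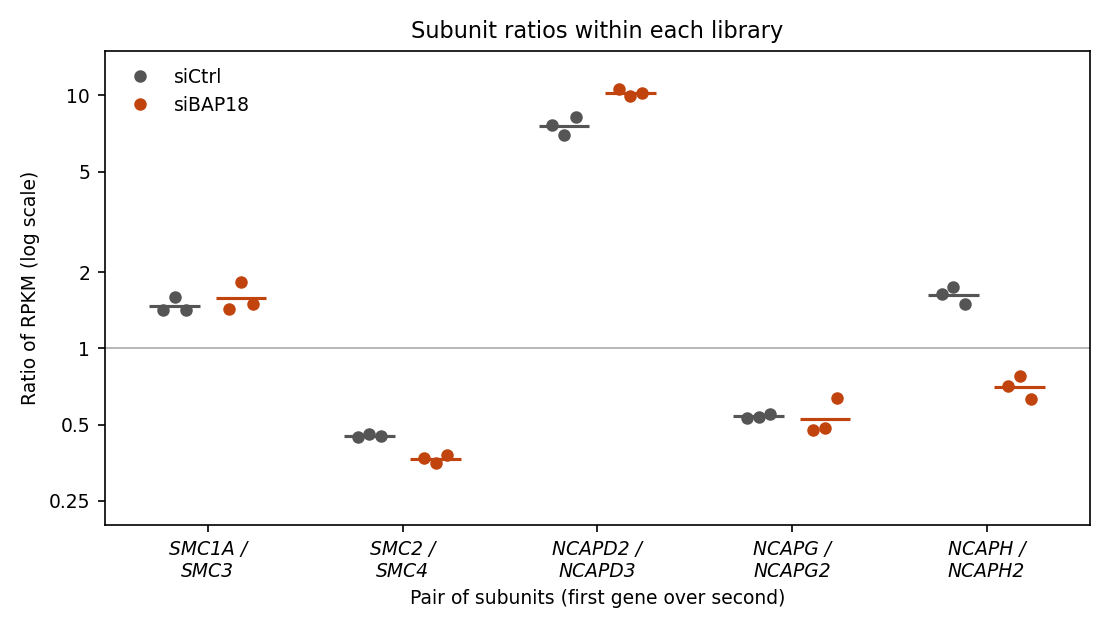
Ratio of RPKM of 2 subunit genes within each library (log scale) for 5 pairs, with siCtrl in grey, siBAP18 in dark orange and bars at the geometric mean. The ratio of NCAPH to NCAPH2 lies above 1 in the siCtrl libraries and below 1 in the siBAP18 libraries, and the points of SMC1A to SMC3 and of NCAPG to NCAPG2 overlap.

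The log2 fold changes differed with the base composition of the transcripts. In the longest GENCODE 29 transcript of each gene, GC content was 37.2% in SMC4, 37.6% in SMC2, 38.9% in SMC3, 39.0% in NCAPG and 41.4% in NCAPG2. It was 47.2% in SMC1A, 47.6% in both NCAPD3 and NCAPH, 52.5% in NCAPD2 and 62.2% in NCAPH2, so that the member that rose was the richest in GC and the members with the lowest log2 fold changes, SMC2 and SMC4, were the poorest. All genes tested showed a trend of the same direction. The median log2 fold change was −0.32 for the 2020 genes with a GC content of 35 to 40%, 0.02 for the 2968 genes at 45 to 50% and 0.14 for the 1865 genes at 60 to 65%. Relative to the median of its own 5% class, SMC2 lay lower by a log2 difference of −1.12, NCAPH by −0.89, SMC4 by −0.82 and NCAPG2 by −0.76. SMC1A (−0.67), NCAPG (−0.63), NCAPD3 (−0.49) and SMC3 (−0.43) followed, and the differences were smaller for NCAPD2 (−0.14) and NCAPH2 (0.20). With offsets for gene length and GC content in the edgeR fit, an alternative added after the data had been seen, each of the 8 lower members remained lower and NCAPH2 remained higher (log2 fold change 0.18, adjusted p = 0.0205). In that fit 27.6% of 16463 genes were lower and 26.7% higher. SMC2 had a log2 fold change of −1.10 in it, SMC4 of −0.77, and NCAPD2 passed the threshold as well (−0.13, adjusted p = 0.0361).

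**Figure D4:**
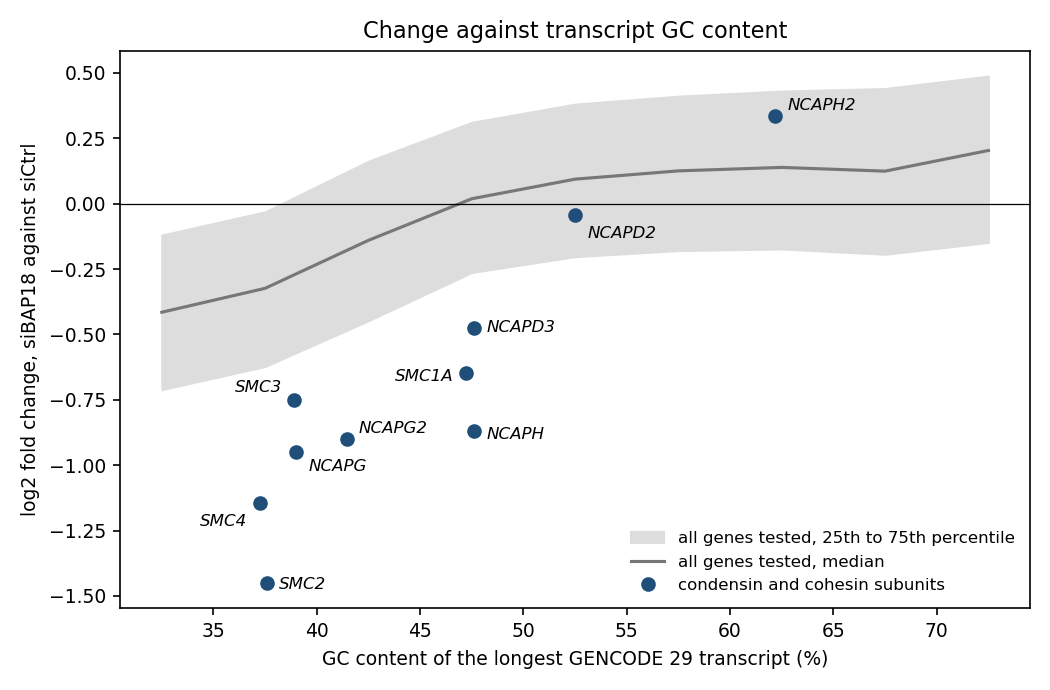
log2 fold change of each subunit gene (points) against the GC content of its longest GENCODE 29 transcript in percent, over the median (line) and the 25th to 75th percentile (band) of all genes tested, in classes of 5%. The 8 members that fell lie below the band, and NCAPD2 and NCAPH2 lie within it.

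Genes that act with these complexes were taken from lists. In 3 lists with 37 genes in all, 24 were lower and 2 higher at an edgeR adjusted p under 0.05, with a median log2 fold change of −0.38. Over all genes tested, 25.1% were lower and 24.5% higher, and 33.2% were lower among those at or above the level of NCAPG, and the counts of the lists below are to be read against these shares. The list of 17 cohesin partners includes the subunits STAG1 and STAG2 and genes that load, release, acetylate, protect or otherwise regulate cohesin or bind beside it. Of these 17 genes, 10 were lower and 0 were higher (median log2 fold change −0.32). The lowest were SGO2, a shugoshin that protects centromeric cohesin (log2 fold change −1.07, edgeR adjusted p = 1.02e-08), and ESCO1, an acetyltransferase of SMC3 (−0.77, adjusted p = 5.60e-07). The highest were WAPL, which releases cohesin from chromatin (log2 fold change 0.19, edgeR adjusted p = 0.0632), and MAU2, which forms the loader with NIPBL (0.08, adjusted p = 0.457), and neither passed the threshold. NIPBL itself was at 4.19 ± 0.0504 RPKM in siCtrl and 4.08 ± 0.0466 in siBAP18 cells (SD, n = 3 each), with an edgeR adjusted p of 0.635. The cohesin subunits STAG1 and STAG2 were both lower, with log2 fold changes of −0.51 and −0.38 (edgeR adjusted p = 2.29e-05 and 4.90e-05).

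A further SMC complex is formed by SMC5 and SMC6 and acts in recombination repair. Of its 8 listed genes, 5 were lower and 2 higher, the latter a share near the 24.5% of all genes tested. SLF1, which recruits the complex to damaged DNA, had the lowest log2 fold change (−1.01, edgeR adjusted p = 3.60e-07), followed by SMC6 (−0.91, adjusted p = 6.98e-11) and SMC5 (−0.82, adjusted p = 1.70e-09). The non-SMC subunits NSMCE3 (log2 fold change 0.68, edgeR adjusted p = 9.72e-09) and NSMCE1 (0.47, adjusted p = 5.06e-06) were higher. Of the kleisins of this complex, NSMCE4A had a log2 fold change of −0.01 (edgeR adjusted p = 0.959) and EID3 was lower (−0.42, edgeR adjusted p = 0.00499).

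Of 12 genes that shape or drive mitotic chromosomes, 9 were lower and 0 higher (median log2 fold change −0.41). TOP2A, the topoisomerase that decatenates chromosomes beside condensin, was at 26.5 ± 0.434 RPKM in siCtrl and 10.7 ± 0.913 in siBAP18 cells (SD, n = 3 each), and its log2 fold change was −1.31 (edgeR adjusted p = 3.91e-14). CDK1, the mitotic kinase that phosphorylates condensin (log2 fold change −1.25, edgeR adjusted p = 2.83e-12), and MKI67, which coats mitotic chromosomes (−1.20, adjusted p = 6.89e-13), also passed both thresholds. The kinase PLK1 (log2 fold change −0.05, edgeR adjusted p = 0.587) and BIRC5 (−0.09, adjusted p = 0.306), a subunit of the chromosomal passenger complex, did not pass. Genes of S phase and of G2 and mitosis moved with the members. Of 39 listed S phase genes, 37 were lower and 0 higher (median log2 fold change −1.04), and of 49 tested genes of G2 and mitosis, taken without the members, 36 were lower and 2 higher (median −0.64). By flow cytometry, the study reported more A549 cells in G1 and fewer in S with BAP18 siRNA, without a significant change in G2 and mitosis. Those cultures had been starved of serum and refed before the measurement. The part that the cell cycle distribution of the sequenced cultures had in the values of the members was not tested.

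**Figure D5:**
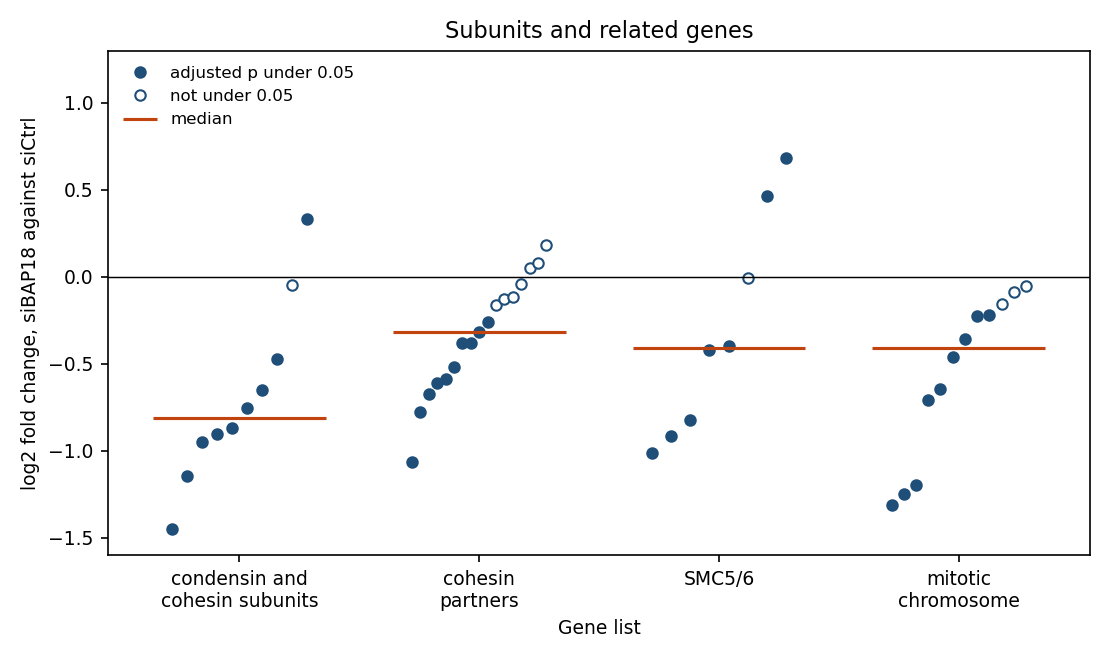
log2 fold change between siBAP18 and siCtrl cells for the 10 subunit genes and for the lists of cohesin partners (17 genes), the SMC5 and SMC6 complex (8) and mitotic chromosome genes (12), each ordered by value, filled where the adjusted p was under 0.05, with a bar at the median. The medians are −0.81, −0.32, −0.41 and −0.41.

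Subunits of meiotic cohesin were detected to unequal extents. STAG3 was at 13.8 ± 0.524 RPKM in siCtrl and 8.84 ± 0.251 in siBAP18 cells (SD, n = 3 each), with a log2 fold change of −0.65 (edgeR adjusted p = 1.23e-08). STAG3 has near-identical relatives elsewhere in the genome, so its counts are uncertain. SMC1B, the meiotic relative of SMC1A, was at 0.107 ± 0.0351 RPKM in siCtrl and 0.0792 ± 0.0158 in siBAP18 cells (SD, n = 3 each; edgeR adjusted p = 0.362). REC8, the meiotic kleisin, had a log2 fold change of 0.52 (edgeR adjusted p = 0.0305) at 0.339 ± 0.0349 RPKM in siCtrl cells (SD, n = 3).

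Listed exons of 5 members overlap those of genes on the opposite strand. The library protocol keeps strand, but the sources used here do not state whether the counting did, so reads in the shared stretches cannot be assigned to 1 strand. NCAPG shares 33.1% of its exon bases with LCORL (log2 fold change −0.52, edgeR adjusted p = 5.10e-04), which was itself at 0.477 ± 0.0426 RPKM in siCtrl cells (SD, n = 3). SMC4 shares 18.5% with TRIM59 (log2 fold change −1.0, edgeR adjusted p = 2.59e-07) and 7.2% with IFT80 (−1.02, adjusted p = 9.39e-10), and these neighbours fell by about as much as SMC4. NCAPD2 shares 7.5% with MRPL51, a mitochondrial ribosomal protein gene at 83.8 ± 1.57 RPKM in siCtrl and 95.8 ± 5.45 in siBAP18 cells (SD, n = 3 each), which rose (log2 fold change 0.19, edgeR adjusted p = 0.0185). The shared stretch is 486 bases, of 1551 listed for MRPL51. The part of MRPL51 reads in the level of NCAPD2 was not tested. NCAPD3 shares 5.1% with JAM3, 2.7% with VPS26B and 1.1% with a further gene, none of which passed the threshold, and SMC1A shares 0.4% with RIBC1, which was lower (log2 fold change −0.31, edgeR adjusted p = 0.0346). No overlap was found for SMC2, SMC3, NCAPH, NCAPG2 or NCAPH2. The processed pseudogene NCAPD2P1 had at most 8 counts in any library.

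Because an siRNA can lower other transcripts through bases 2 to 8 of its guide, the 3′ UTRs of the members were searched for the complementary words of 7 bases. The longest 3′ UTR of each gene in GENCODE 29 was used, of 334 bases in SMC3 to 5954 in SMC1A. The word ACTCAAC of siBAP18#3 was in none of the 10 members and in 6.72% of 16542 genes. The word AATCACA of siBAP18#1 was in SMC1A at 2 positions and in NCAPD2 at 1 position, against 13.5% of genes. The word AAGATTC of siBAP18#2 was in SMC1A at 3 positions and in SMC4 at 1 position, against 10.6% of genes, and the word TGTCACG of siCtrl was in no member, against 2.85% of genes. The site in SMC4, which begins at base 12 of its 3′ UTR, and the site in SMC1A that is followed by an A are printed here with 10 bases on either side and the word in capitals.
SMC4, siBAP18#2: ctttatgctgAAGATTCttcaagttga
SMC1A, siBAP18#2: agcttatgtgAAGATTCagagaaggca
A word is a description of the letters, and the part of the guides in the levels of the members was not tested.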

How the data were processed

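Poly(A) RNA sequencing of 3 siCtrl and 3 siBAP18 cultures of A549 cells was analysed from the tables the authors deposited. The deposited counts are whole numbers per gene without normalization, and the deposited RPKM values were checked to equal the count divided by listed gene length and by the total of the library, in the usual RPKM unit. Aligner, counting program and use of strand are not given in the sources used here. The submitters' processing notes name hg38 and GRCm38, and the exon positions of the members are human ones. Where samples share a group, the labels call them biological replicates, and p-values measure the spread between them.

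The main test was the quasi-likelihood F test of edgeR 4.0.16 under R 4.3.3, with DESeq2 1.42.0 and limma 3.58.1 as alternatives. Low genes were removed with filterByExpr, libraries were scaled with TMM, condition was the only term, and p-values were adjusted by Benjamini-Hochberg over all 20776 genes tested. Standard errors were obtained as the absolute log2 fold change over the root of F. The steps were tested on simulated data. RPKM levels are given as mean ± SD over 3 libraries. Python 3.11.15 served for ratios and sequence words (pandas 2.3.3, with numpy 2.4.6 and scipy 1.17.1) and matplotlib 3.10.9 for plots. A count of 0 allows up to 3 counts in a library, and counting error alone is covered by this. Total counts lay between 42094524 and 56548620, and replicates differed beyond sampling noise, the chi-square over its degrees of freedom being 3.95 or more in every pair. Promoters are from RefSeq on GRCh38.p14 and transcripts from GENCODE 29.

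The members and lists were chosen with earlier results of these data known. Every member is named, and of each related list the genes past both thresholds, the 2 lowest and the 2 highest, together with genes that overlap a member. NIPBL, STAG1, STAG2, SMC5, NSMCE4A, EID3 and the epithelial markers were named after their values were seen. Alternatives were other scalings, filters and tools, limma on log2(RPKM + 1) and log2(RPKM + 0.1), a replicate block, gene length and GC offsets, and each library left out. Libraries with the same replicate number had correlations of deviations from the group means of 0.0815, 0.221 and 0.106 over 14891 genes. The numbers were not taken as pairs in the main test, because the first lay under 0.1, the limit used here. All were positive, and each of the 6 libraries correlated best with its own number, so this choice is open to question.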

Additional observations from a re-analysis of the deposited data

How the results depend on the processing

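Under 18 alternatives the 8 lower members and NCAPH2 kept their direction and their side of the adjusted threshold. The number of lower members was 8 and of higher members 1 in each alternative, except that 9 were lower with gene length and GC offsets, and the count past both thresholds was then 1 (SMC2) in place of 2. NCAPD2 had a log2 fold change of 0.026 with a gene length offset and −0.13 (adjusted p = 0.0361) with length and GC offsets. With each library left out, its log2 fold change ran from −0.07 to −0.02. Left-out libraries gave log2 fold changes of −1.0 to −0.79 for NCAPG2 and −0.75 to −0.59 for SMC1A. Of the related genes, 4 in place of 2 were higher with a gene length offset and 4 with length and GC offsets, and 2 to 3 with a library left out. No planned GC content of the listed exons was computed, because no genome of the build was at hand, and transcripts were used instead. With 1 RPKM added to both genes, the difference in log2 ratio was −0.10 for SMC2 to SMC4, 0.33 for NCAPD2 to NCAPD3, −1.03 for NCAPH to NCAPH2 and 0.089 for NCAPG to NCAPG2, since the added RPKM weighs most on low genes. With a library left out, the difference in log2 ratio ranged from −0.015 to 0.17 for SMC1A to SMC3, from −0.17 to 0.043 for NCAPG to NCAPG2, from −0.33 to −0.27 for SMC2 to SMC4, from 0.37 to 0.48 for NCAPD2 to NCAPD3 and from −1.28 to −1.13 for NCAPH to NCAPH2. The first changed sign without siBAP18 replicate 2 and the second without siBAP18 replicate 1 or 2. The replicate block changed no call of a member (SMC2 −1.45, NCAPH2 0.33) and gave 5496 lower genes in place of 5216, although each of the 6 libraries correlated best with its own number, a hint from the data and not from the design. The causes of these shifts were otherwise not tested.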
